A study of Homo sapiens with 12 samples.

Results

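The 56 genes described here encode proteins that sense DNA damage, halt the cell cycle or mend DNA, and they were taken by name from a set of checkpoint, homologous recombination, end joining, Fanconi, mismatch repair, nucleotide excision and base excision repair genes. All 56 were found among the 49651 entries of the count table that hold counts, and 55 of them were among the 14704 genes with enough reads to be tested. Messenger RNA was sequenced in D283 cells, an established medulloblastoma line, from 2 groups with 3 libraries each. Per the labels, the control group carried a scrambled control, and the other group had both ABL1 and ABL2 inactivated, as the genotype field puts it. How the genes were inactivated, and whether the cells were clones or pools, was not given in the sources used here. No agent that damages DNA is named for either group. Nothing in the labels says that the 3 libraries are separate cultures, and p-values then measure only the spread between these samples, which may be technical.

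ABL1 and ABL2, the targeted tyrosine kinase genes, were lower in every inactivated library than in any control library. Levels are CPM, counts scaled to library size with the trimmed mean of M values (TMM) as correction, and folds are log2 values of inactivated over control. ABL1 had control levels of 157, 148 and 154 CPM and inactivated levels of 62.1, 62.3 and 61.1 CPM, a log2 fold change of -1.31 ± 0.043 (SE). ABL2 had 144, 136 and 134 CPM and then 97.6, 112 and 102 CPM, a log2 fold change of -0.41 ± 0.051. Both kinase genes kept a measurable mRNA level, and protein was not measured.

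Libraries held 33505903 to 49034159 counts. A gene without a read in a library could hold up to 3 counts at that depth, which is 0.0612 to 0.0895 CPM, for counting error only. Inactivated replicate 2 was the deepest library. It also gave higher values than the other 2 inactivated libraries for genes with long exons: among the 1494 tested genes with a level of at least 5 CPM and at least 10 kb of exon, its median log2 ratio to the mean of the others was 0.085. The same ratio was -0.078 for inactivated replicate 1 and -0.0039 for replicate 3, and 0.041, 0.0049 and -0.046 for control replicates 1, 2 and 3. Of 8 markers listed for D283 cells 7 were tested, of which 4 rose (MYC, NPR3, GABRA5 and IMPG2, the last from 66.7 ± 3.63 to 316 ± 18.4 CPM) and 2 fell (OTX2 from 830 ± 16.1 to 666 ± 11.4 CPM and NEUROD1 from 28.5 ± 1.51 to 17.8 ± 1.06 CPM). ZIC1 did not pass, and PAX6 had at most 6 reads in a library. Of 5 blood cell markers CD3E and HBB had 0 reads and the 5 summed to 0.506 to 0.963 CPM in control and 0.547 to 1.01 CPM in inactivated libraries. Of 6 fibroblast markers COL3A1 had 0 reads, 2 of the 4 tested rose and 1 fell, and the sum was 17.2 to 18.3 CPM in control and 23.8 to 27.01 CPM in inactivated libraries. Of 4 endothelial markers 1 of the 2 tested, KDR, rose, from 2.22 ± 0.342 to 8.41 ± 0.690 CPM, and the 4 summed to 4.12 to 4.46 CPM and 9.66 to 11.02 CPM. The part of these markers in the values below was not tested.

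Damaged DNA is first recognised by kinases and chromatin-binding proteins that stop the cell cycle until the lesion is mended. Breaks in both strands are rejoined directly by end joining or copied from the sister chromatid by homologous recombination, crosslinks are cut out with the help of the Fanconi proteins, and wrong or damaged bases are replaced by the mismatch and excision pathways. The ABL1 kinase is tied to this response: it can be activated through the ATM kinase after damage and it phosphorylates p73, the product of TP73. Medulloblastoma is treated with radiation and DNA-damaging drugs, and inherited defects in several of these genes raise the risk of the tumour.

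Of the 55 repair genes tested, 13 rose, 19 fell and 23 did not pass the test. That is 58.2% past the threshold of an adjusted p of 0.05 in edgeR's quasi-likelihood test, beside 59.3% of all genes tested. Among all genes 29.6% were called higher and 29.7% lower, so the share of repair genes that changed was close to that of the whole transcriptome. The changes were small. The median size of the log2 fold change was 0.14 among the repair genes and 0.27 among all genes tested, and the median signed value was -0.02 beside 0.00. The 2 sets were not matched for level. All genes tested include some with few reads and wide errors, such as LUM, at 0.231 CPM in control and an SE of 0.388. At least 1.5-fold differences were called for 4 repair genes, BRIP1 and BRCA1 higher and PMS2 and TP73 lower, where 24.0% of all genes met both conditions. The CPM of the groups did not overlap for 31 repair genes, 13 higher and 18 lower, and 63.2% of all genes tested had no overlap. In bulk RNA, less of a transcript in every cell and fewer cells that make it cannot be told apart.

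**Figure D1:**
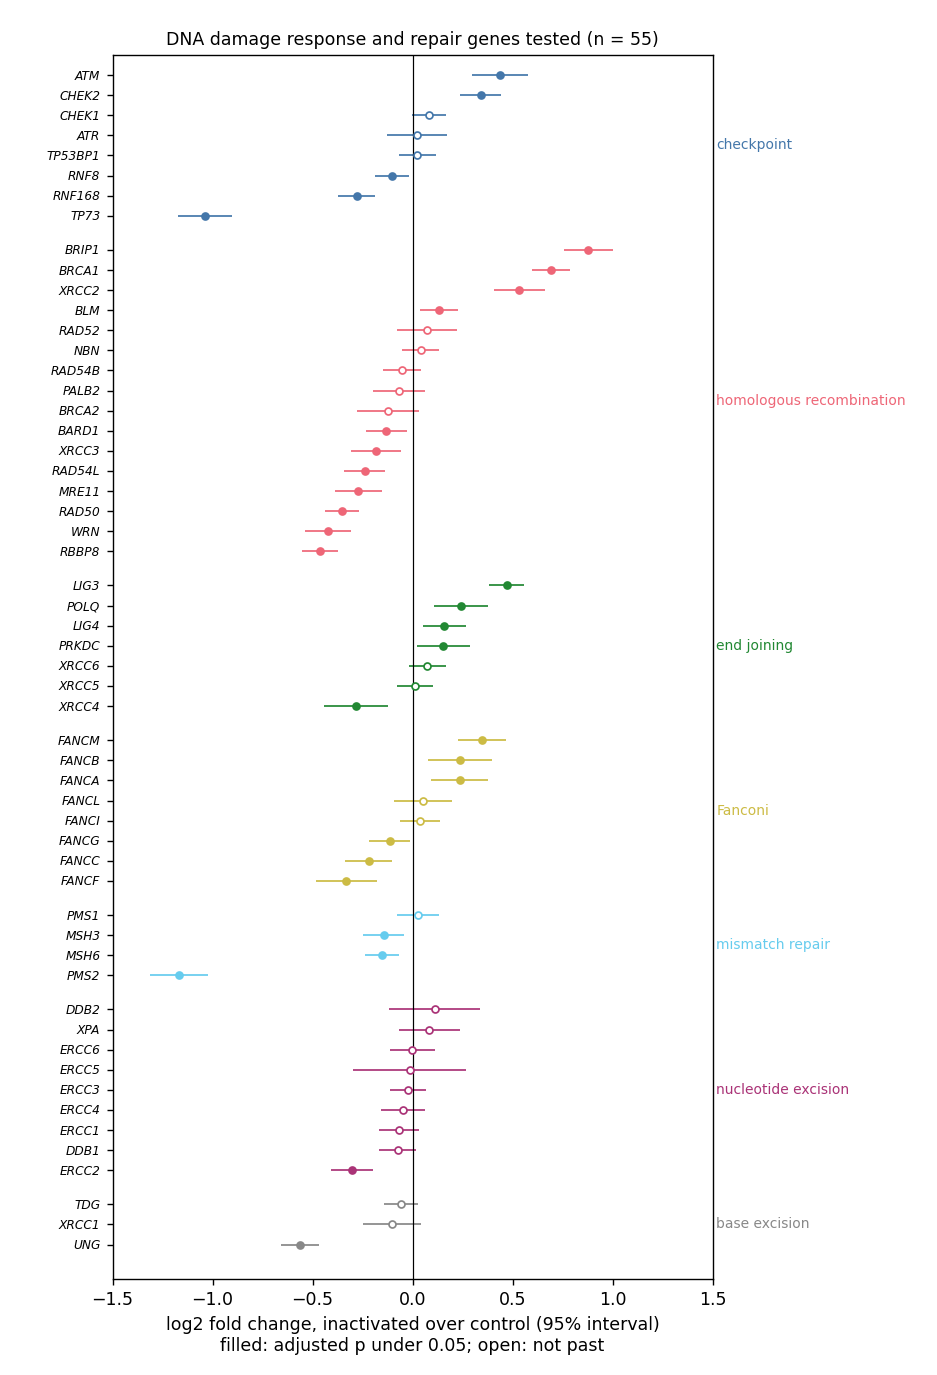
Log2 fold change of each of the 55 tested repair genes (x axis, inactivated over control) with its 95% interval, grouped by role. Filled points passed an adjusted p of 0.05 and open points did not; TP73 and PMS2 stand near -1, BRIP1 and BRCA1 highest, and nucleotide excision repair genes lie close to 0 apart from ERCC2.

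The plot of fold changes by role shows that the roles were mixed inside and differed in their counts. Of 8 checkpoint genes 2 rose and 3 fell, with a median log2 fold change of 0.02. Of 16 homologous recombination genes 4 rose and 7 fell (median -0.09). End joining gave 4 higher and 1 lower of 7 (median 0.15), and the Fanconi group 3 higher and 3 lower of 8 (median 0.05). Mismatch repair had 3 lower of 4 and none higher (median -0.15). Nucleotide excision repair had 1 lower of 9 and 8 that did not pass, and base excision repair 1 lower of 3 tested. Differences between the roles were not tested.

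TP73 showed the largest change among the checkpoint genes. It encodes p73, a relative of p53 that can drive cell-cycle arrest and apoptosis, and its gene spans 3652516 to 3736201 of chromosome 1, forward strand (GRCh38.p14, as for all positions below). Control libraries held 23.7, 24.2 and 25.8 CPM of it and inactivated libraries 12.3, 12.2 and 11.3 CPM. The mean went from 24.5 ± 1.10 to 11.9 ± 0.566 CPM (SD, n = 3 per group, here and below), so it fell by 51.4%, with a log2 fold change of -1.04 ± 0.065 and an adjusted p of 8.7e-11. The groups lie far apart, and the highest inactivated library stands below every control library. The antisense transcript TP73-AS1 shares 3.80% of the exon bases of TP73 on the other strand, and its log2 fold change was 0.09 ± 0.063, which did not pass. The files do not tell which TP73 isoforms fell. The 250 bases before its start are shown because TP73 is one of only 2 repair genes, with MSH3, that hold the E2F-type letters TTTGGCGC on either strand there, among 50 repair genes with a RefSeq promoter entry. Of all 35116 promoters there 0.55% hold them, and of the 11059 promoters of tested genes 0.868% do, beside 4% of the repair genes.

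TP73, chr1:3652266-3652515, forward strand: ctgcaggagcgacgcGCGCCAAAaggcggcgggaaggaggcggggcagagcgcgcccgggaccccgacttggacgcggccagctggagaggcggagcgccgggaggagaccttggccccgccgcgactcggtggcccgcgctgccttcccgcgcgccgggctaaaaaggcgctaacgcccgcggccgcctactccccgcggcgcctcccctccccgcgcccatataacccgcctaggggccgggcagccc

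Capitals mark the match, read on the opposite strand. A match is a description of the letters and not of a bound factor.

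Among the kinases, ATM and CHEK2 rose while ATR and CHEK1 did not pass. ATM, the kinase that responds to double-strand breaks, had 63.7, 64.2 and 57.6 CPM in control and 75.6, 94.7 and 80.6 CPM in inactivated libraries, a log2 fold change of 0.44 ± 0.067 (adjusted p 1.5e-05). Its 3 inactivated values all lie above the controls, with replicate 2 the highest, and without that library the log2 fold change was 0.34. CHEK2, the checkpoint kinase that ATM phosphorylates, had 30.7, 30.8 and 30.9 CPM and then 39.3, 39.5 and 38.1 CPM, with a log2 fold change of 0.34 ± 0.049 (adjusted p 7.9e-06). Its libraries were tight within both groups and did not overlap. ATR, the kinase that answers stalled replication, had a log2 fold change of 0.02 with a 95% interval of -0.13 to 0.17. CHEK1, the kinase downstream of ATR, had 129 to 134 CPM in control and 137 to 142 CPM in inactivated libraries, no overlap, and a log2 fold change of 0.08 with an interval of -0.00 to 0.17 (adjusted p 0.0859), which passed only when libraries were scaled by their totals alone (adjusted p 0.0298).

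Of the 3 genes that act on chromatin beside breaks, RNF168 and RNF8 fell and TP53BP1 did not pass. RNF168, a ubiquitin ligase that marks histone H2A beside breaks, fell from 69.2, 71.3 and 68.2 CPM to 55.9, 58.4 and 57.8 CPM (log2 fold change -0.28 ± 0.044, adjusted p 2.3e-05). RNF8, the ligase that acts before it, had 98.2 to 102 CPM and then 92.3 to 94.97 CPM (log2 fold change -0.10 ± 0.041, adjusted p 0.0397), a narrow gap without overlap. TP53BP1, the protein recruited to these marks, had a log2 fold change of 0.02 with an interval of -0.07 to 0.12. It shares 29.7% of its exon bases with TUBGCP4 on the opposite strand, a gene that rose by 0.68 on the log2 scale, and whether reads were counted by strand was not given in the sources used here.

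**Figure D2:**
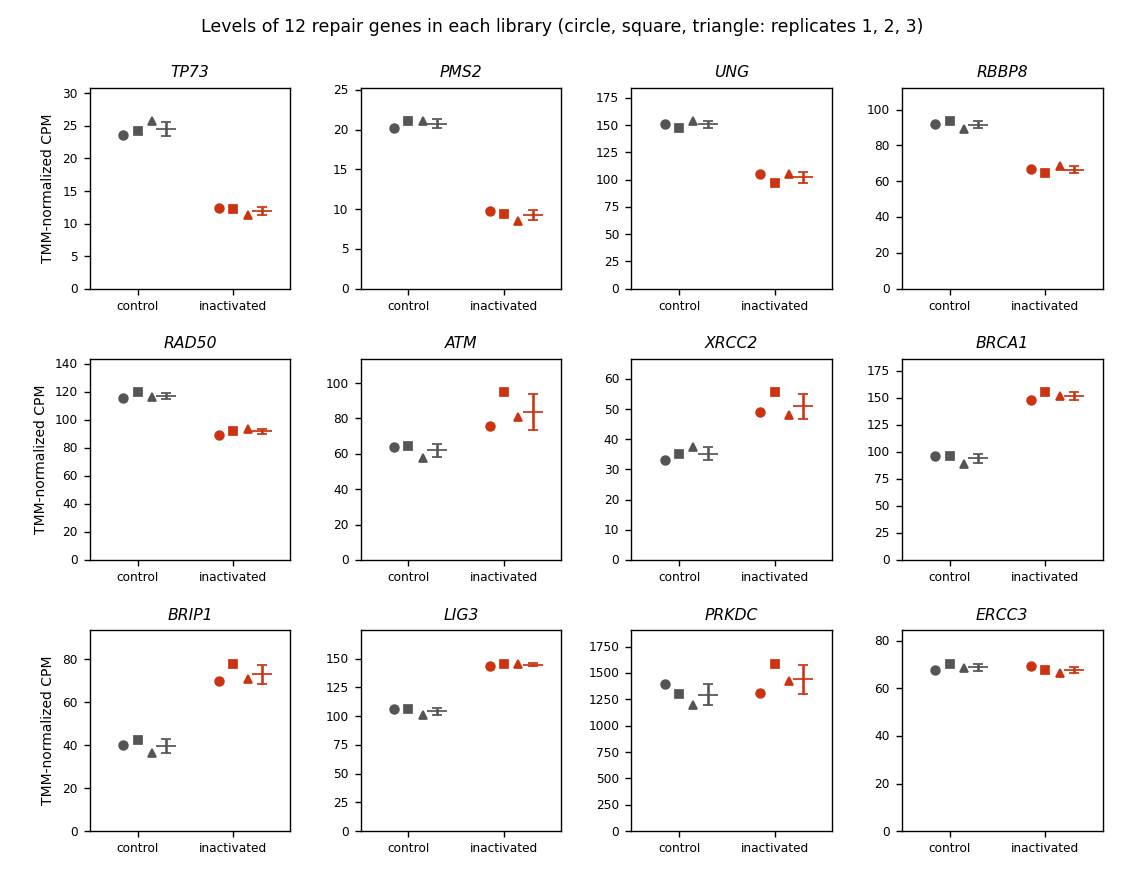
TMM-normalized CPM (y axis, from 0) of 12 repair genes in each library, grey for control and red for inactivated, with circle, square and triangle for replicates 1, 2 and 3 and the bar for mean and SD. TP73, PMS2, UNG, RBBP8 and RAD50 are lower in all inactivated libraries, ATM, XRCC2, BRCA1, BRIP1 and LIG3 are higher in all of them, and PRKDC and ERCC3 overlap.

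In homologous recombination the largest rises were those of BRIP1 and BRCA1, which encode a helicase and the tumour suppressor it binds. BRIP1, at 61679139 to 61863528 of chromosome 17, reverse strand, had 40.2, 42.6 and 36.3 CPM in control and 70.02, 77.9 and 70.9 CPM in inactivated libraries. Its log2 fold change was 0.88 ± 0.059 (adjusted p 2.0e-10), an 83.7% increase. BRCA1, at 43044295 to 43125364 of the same chromosome and strand, had 96.4, 96.3 and 89.04 CPM and then 148, 155 and 152 CPM, with a log2 fold change of 0.69 ± 0.044 (adjusted p 1.0e-10). Neither gene had overlapping groups. XRCC2, a protein needed for strand exchange, rose from 33.1, 35.3 and 37.4 CPM to 49.2, 55.6 and 47.9 CPM (log2 fold change 0.53 ± 0.061, adjusted p 3.8e-07), again without overlap. The window before the start of BRIP1 is shown because it holds the motif TTTGAA, found in cell-cycle promoters, together with 3 copies of CCAAT, counted on both strands.

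BRIP1, chr17:61863529-61863778, reverse strand: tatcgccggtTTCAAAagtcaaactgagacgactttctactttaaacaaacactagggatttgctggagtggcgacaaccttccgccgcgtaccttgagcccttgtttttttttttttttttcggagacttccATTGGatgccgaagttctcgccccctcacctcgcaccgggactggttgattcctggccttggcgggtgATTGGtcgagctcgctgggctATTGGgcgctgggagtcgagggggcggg

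Capitals mark the motifs. Of the 50 matched repair genes, 5 hold TTTGAA and 22 hold CCAAT in this window, and of all 35116 promoters 13.3% and 32.0% do. Of the 11059 promoters of tested genes, 8.58% hold TTTGAA and 35.2% hold CCAAT, beside 10.0% and 44.0% of the repair genes. The matches in the BRIP1 window do not overlap each other. For some genes the RefSeq start is not the outer end of the gene span used here. The window of BRCA1 lies at 43170328 to 43170577, outside its span. Those of CHEK1, RAD52, MRE11, RBBP8 and ERCC6 lie inside theirs, and those of CHEK2 and FANCL lie partly inside. These motif counts thus mix windows of unlike position.

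Among the recombination genes that prepare or hold broken ends, RBBP8, RAD50 and MRE11 fell and NBN did not pass. RBBP8, which encodes CtIP, the protein that starts resection of ends, had 91.95, 93.6 and 89.3 CPM in control and 66.7, 64.5 and 68.4 CPM in inactivated libraries, and its log2 fold change was -0.46 ± 0.043 (adjusted p 2.7e-08). RAD50, the coiled-coil subunit of the complex that tethers ends, fell from 115, 119.7 and 116 CPM to 89.5, 92.2 and 93.5 CPM (log2 fold change -0.35 ± 0.041, adjusted p 5.5e-07). MRE11, the nuclease of the same complex, fell from 62.9 ± 1.77 to 52.02 ± 4.40 CPM (log2 fold change -0.27 ± 0.055, adjusted p 0.000339). NBN, the third subunit, had 381 to 417 CPM and 399.7 to 419.5 CPM, overlapping groups and a log2 fold change of 0.04 with an interval of -0.05 to 0.13.

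Helicases split. WRN, the helicase mutated in Werner syndrome, fell from 54.1, 53.1 and 49.01 CPM to 36.5, 41.1 and 38.8 CPM (log2 fold change -0.42 ± 0.055, adjusted p 2.1e-06). BLM, the helicase of Bloom syndrome, rose from 72.4 ± 3.35 to 79.4 ± 0.917 CPM (log2 fold change 0.13 ± 0.045, adjusted p 0.0157). RAD54L, a motor protein of strand invasion, fell from 41.6 ± 1.10 to 35.3 ± 0.837 CPM (log2 fold change -0.24 ± 0.049, adjusted p 0.00037), while its relative RAD54B had a log2 fold change of -0.05 with an interval of -0.15 to 0.04. RAD54B shares 63.7% of its exon bases on the same strand with FSBP, listed at 0 reads, so its level is uncertain, and RAD54L shares 18.0% with LRRC41 on the other strand. XRCC3, a partner of strand exchange, fell by 0.18 on the log2 scale with overlapping groups, since its inactivated replicate 1, at 44.05 CPM, lay within the control range of 43.6 to 45.6 CPM. BARD1, the partner that binds BRCA1, fell by 0.13 (adjusted p 0.0279), so the partners of that ubiquitin ligase had fold changes of opposite sign. The BARD1 groups lay close, at 58.8 to 60.5 CPM in control and 52.7 to 58.2 CPM in inactivated libraries. Its call was lost in 9 other settings, the null of 1.5-fold among them. Other genes within 10 Mb of BRCA1 had a median log2 fold change of 0.44. BRCA2, which loads the recombinase, PALB2, which joins BRCA1 to BRCA2, and RAD52, an annealing protein, had log2 fold changes of -0.12, -0.07 and 0.07 and did not pass.

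In end joining the ligases rose and the Ku subunits did not pass. LIG3, the ligase of alternative end joining and base excision repair, at 34980512 to 35010872 of chromosome 17, forward strand, had 106, 106 and 101 CPM in control and 143, 145 and 146 CPM in inactivated libraries (log2 fold change 0.47 ± 0.041, adjusted p 9.9e-09). The groups are far apart, but LIG3 shares 48.3% of its exon bases with RFFL on the other strand, which had a log2 fold change of 0.57 at 2.23 ± 0.26 CPM in control cells. POLQ, the polymerase of alternative end joining, rose from 40.9, 37.7 and 37.2 CPM to 41.97, 50.9 and 43.9 CPM (log2 fold change 0.24 ± 0.065, adjusted p 0.00325). The gap is small, and without inactivated replicate 2 its log2 fold change was 0.16 (adjusted p 0.0139). LIG4, the ligase of classical end joining, rose from 34.7 ± 1.22 to 38.7 ± 1.25 CPM (log2 fold change 0.16 ± 0.051, adjusted p 0.0129), and its partner XRCC4 fell from 11.99 ± 0.631 to 9.84 ± 0.409 CPM (log2 fold change -0.28 ± 0.076, adjusted p 0.00354). LIG4 and XRCC4 act as 1 complex, and their fold changes had opposite signs.

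PRKDC, XRCC5 and XRCC6 encode the DNA-dependent protein kinase and the Ku subunits that carry it to DNA ends. PRKDC had 1391, 1299.8 and 1195 CPM in control and 1314, 1587 and 1424 CPM in inactivated libraries, and the ranges overlap. Its log2 fold change of 0.15 ± 0.063 passed with an adjusted p of 0.0417. XRCC5 had 842 to 879 CPM and then 852 to 904 CPM, a log2 fold change of 0.01 with an interval of -0.08 to 0.10. XRCC6 had 795 to 841 CPM and then 820.5 to 882 CPM, a log2 fold change of 0.07 with an interval of -0.02 to 0.17. Both Ku intervals end well short of a 1.5-fold change, which is 0.58 on the log2 scale.

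The Fanconi genes went in both directions within the core complex, the ubiquitin ligase that marks crosslinks for repair. FANCA rose from 28.2 ± 1.95 to 33.1 ± 3.09 CPM (log2 fold change 0.24 ± 0.068, adjusted p 0.00588) and FANCB from 16.95 ± 1.26 to 19.96 ± 1.91 CPM (0.24 ± 0.076, adjusted p 0.0113). FANCC fell from 52.8, 48.1 and 48.5 CPM to 41.2, 41.2 and 46.2 CPM (-0.22 ± 0.056, adjusted p 0.00227), and FANCF from 15.2, 14.9 and 15.95 CPM to 12.9, 12.4 and 11.2 CPM (-0.33 ± 0.072, adjusted p 0.000653). FANCG fell by 0.11 on the log2 scale (adjusted p 0.0464). FANCM, the DNA translocase that brings the core complex to a lesion, rose from 27.2, 29.3 and 26.7 CPM to 33.00, 36.7 and 35.98 CPM (0.35 ± 0.058, adjusted p 4.2e-05). FANCL, the catalytic subunit, and FANCI, a protein the ligase marks, had log2 fold changes of 0.05 and 0.04 and did not pass. On the other strand FANCL shares 26.6% of its exon bases with VRK2 and FANCA 22.9% with ZNF276. Without inactivated replicate 2 the log2 fold change of FANCA was 0.16 (adjusted p 0.0275).

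Mismatch repair was where the largest fall of all 55 genes was measured. PMS2, the endonuclease subunit that nicks DNA beside a mismatch, spans 5970925 to 6009106 of chromosome 7, reverse strand. It had 20.1, 21.1 and 21.04 CPM in control and 9.76, 9.39 and 8.51 CPM in inactivated libraries, and between means of 20.8 ± 0.529 and 9.22 ± 0.645 CPM it fell by 55.6%. Its log2 fold change was -1.17 ± 0.070 (95% interval -1.31 to -1.02, adjusted p 4.3e-11). Every inactivated library held less than any control library, by a wide margin. The PMS2 gene has near copies on the same chromosome, and how reads that fit several places were handled was not given in the sources used here, so its level is uncertain to that extent. Of those copies tested, PMS2CL and PMS2P1 had log2 fold changes of -0.26 and -0.08 and did not pass, and PMS2P3, PMS2P4 and PMS2P5 fell by 0.58, 0.56 and 1.18. These 3 lie on a stretch of chromosome 7 where the median of neighbouring genes was -1.10, -1.12 and -1.10, whereas the neighbours of PMS2 had a median of -0.10.

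PMS2 starts next to AIMP2, a scaffold of the tRNA synthetase complex that runs the other way, and both fell. AIMP2 had 56.8, 55.8 and 55.7 CPM in control and 32.4, 28.2 and 31.2 CPM in inactivated libraries (log2 fold change -0.88 ± 0.054, adjusted p 6.1e-11). The 165 bases between the starts are shown because they lie upstream of both genes. Whether they act on either gene was not tested.

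PMS2 to AIMP2, chr7:6009107-6009271, reverse strand: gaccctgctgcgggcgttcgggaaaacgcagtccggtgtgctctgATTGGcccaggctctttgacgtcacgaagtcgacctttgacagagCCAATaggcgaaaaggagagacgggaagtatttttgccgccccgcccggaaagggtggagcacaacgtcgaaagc

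The letters are those of the reverse strand, so as printed they begin beside the AIMP2 start and end beside the PMS2 start. Capitals mark the 2 copies of CCAAT, one of them read on the opposite strand. The stretch holds neither TTTGAA nor TTTGGCGC.

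The other mismatch repair genes moved little. MSH6, which finds single mismatches, fell from 377, 379.6 and 372 CPM to 329.7, 341 and 344 CPM (log2 fold change -0.15 ± 0.040, adjusted p 0.00289), a shift of 10.1% without overlap. MSH3, which finds larger loops, fell from 59.6 ± 3.41 to 53.98 ± 0.903 CPM (-0.14 ± 0.049, adjusted p 0.0169). PMS1, a further relative of PMS2, had a log2 fold change of 0.03 with an interval of -0.08 to 0.13.

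Nucleotide excision repair, which removes bulky lesions such as those made by ultraviolet light, had the smallest share of calls of these groups, 11.1%. ERCC2, a helicase of the repair and transcription factor TFIIH, fell from 69.1, 63.97 and 70.95 CPM to 56.5, 56.2 and 52.7 CPM (log2 fold change -0.30 ± 0.050, adjusted p 3.5e-05), without overlap. ERCC3, the second TFIIH helicase, had 67.5, 70.3 and 68.5 CPM and then 69.2, 67.5 and 66.4 CPM, overlapping groups with a log2 fold change of -0.02 and an interval of -0.11 to 0.07. The nuclease genes ERCC1 and ERCC4, the damage sensors DDB1 and DDB2, the scaffold gene XPA and the transcription-coupled repair gene ERCC6 had log2 fold changes of -0.07, -0.05, -0.07, 0.11, 0.08 and -0.00, and the groups of each overlapped. Their intervals all lay between -0.17 and 0.34, and ERCC1 shares 33.5% of its exon bases with POLR1G on the other strand. ERCC5, the nuclease that cuts on the other side of the lesion, was listed at 2.82 ± 0.174 and 2.79 ± 0.162 CPM, the lowest level per exon length of the 55. It shares 91.7% of its exon bases, on the same strand, with the readthrough entry BIVM-ERCC5, which has 3 reads in all, so its level here is uncertain.

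Base excision repair swaps single damaged bases. UNG, the glycosylase that removes uracil, at 109097597 to 109110992 of chromosome 12, forward strand, had 151, 148 and 154 CPM in control and 105, 96.4 and 105 CPM in inactivated libraries. Its log2 fold change was -0.56 ± 0.045 (adjusted p 2.4e-09). It fell by 32.3% with no overlap, the third largest decrease of the 55. TDG, a glycosylase for mispaired thymine, had 129.5 to 136 CPM and then 126 to 130.0 CPM, a log2 fold change of -0.06 with an interval of -0.14 to 0.03. XRCC1, the scaffold that binds LIG3, had a log2 fold change of -0.10 with an interval of -0.25 to 0.04.

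PARP2, an enzyme that marks single-strand breaks, had 1, 1 and 1 reads in the control and 2, 5 and 1 reads in the inactivated libraries, and was not tested. All but 1 of these values lie under the 3 counts that a 0 allows. A copy of PARP2 on an alternate locus is listed as well, with 0 reads. Of the 17 other genes within 150 kb of PARP2 on chromosome 14, 3 had any read, with at most 10 reads over all libraries, and 16 of the 17 have such a copy. Its neighbours in the table share the low count, and why was not tested, so the level of PARP2 in these cells cannot be read from it. Of the other repair genes listed for comparison, 13 have an alternate copy and 10 of those 13 were under 1 CPM in both groups.

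**Figure D3:**
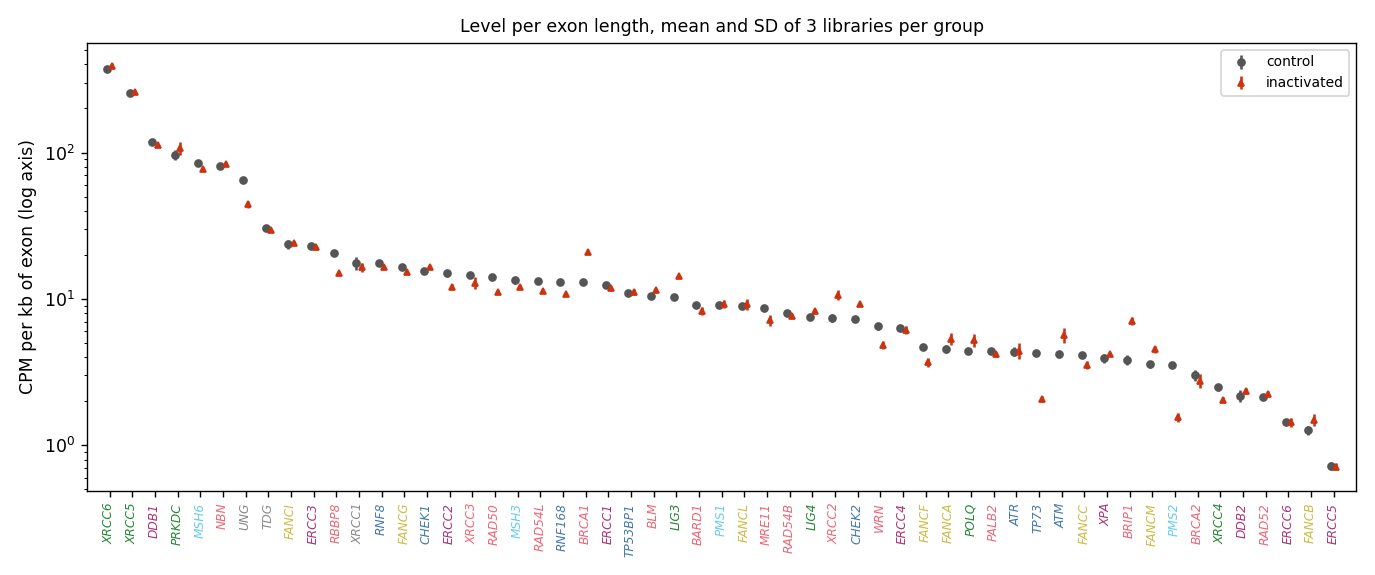
Level of the 55 tested repair genes as CPM per kb of exon (y axis, log scale), mean and SD of 3 libraries per group, ordered by the control level. The Ku genes XRCC6 and XRCC5 lead at 372 and 255 in control cells and ERCC5 is lowest at 0.725; TP73, PMS2, BRCA1 and BRIP1 show the widest gaps between the groups.

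Levels can be compared between genes per kb of exon, and on that scale the repair genes spanned from 0.725 ± 0.0447 for ERCC5 to 372 ± 10.7 for XRCC6 in control cells. XRCC6 and XRCC5 stood apart from the rest, followed by DDB1 at 118 ± 5.0, PRKDC at 96.2 ± 7.28, MSH6 at 85.2 ± 0.888 and NBN at 81.5 ± 3.68. DDB1 and PRKDC differ beyond their SDs in control cells, and not in inactivated cells, where they had 112 ± 3.05 and 107 ± 10.2. UNG came next at 65.3 ± 1.33 in control cells and 44.3 ± 2.15 in inactivated cells. TP73 and PMS2, which fell the most, were in the lower part of this order, at 4.28 ± 0.192 and 3.52 ± 0.0898 in control cells. The plot of levels per exon length sets both groups side by side for each gene.

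Because stretches of several chromosomes shifted as a whole in these cells, each repair gene was set beside the median log2 fold change of the tested genes around it, within 10 Mb. Only 4 repair genes lay where that median was at least 0.2 in size. BRIP1, BRCA1 and LIG3, all on chromosome 17, had neighbour medians of 0.49, 0.44 and 0.40, and RNF8 on chromosome 6 had one of 0.55. LIG3 rose about as much as its neighbours, with a difference of 0.07. BRCA1 and BRIP1 exceeded theirs by 0.25 and 0.39, and RNF8 was 0.65 below its own. The part of the chromosome shift in these 4 changes was not tested. With neighbours within 5 Mb in place of 10 Mb, ATM also passed this limit, with a neighbour median of -0.23, opposite in sign to its own rise. Within 10 Mb, RNF168 and POLQ came nearest to the limit among the rest. RNF168 had a log2 fold change of -0.28 beside a neighbour median of -0.18, and POLQ had 0.24 beside -0.14. Elsewhere 10 repair genes rose and 18 fell among 51 tested, with a median of -0.05. There XRCC2, ATM, FANCM and CHEK2 on the one side and PMS2, TP73, UNG and RBBP8 on the other changed among neighbours with medians between -0.12 and 0.00.

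**Figure D4:**
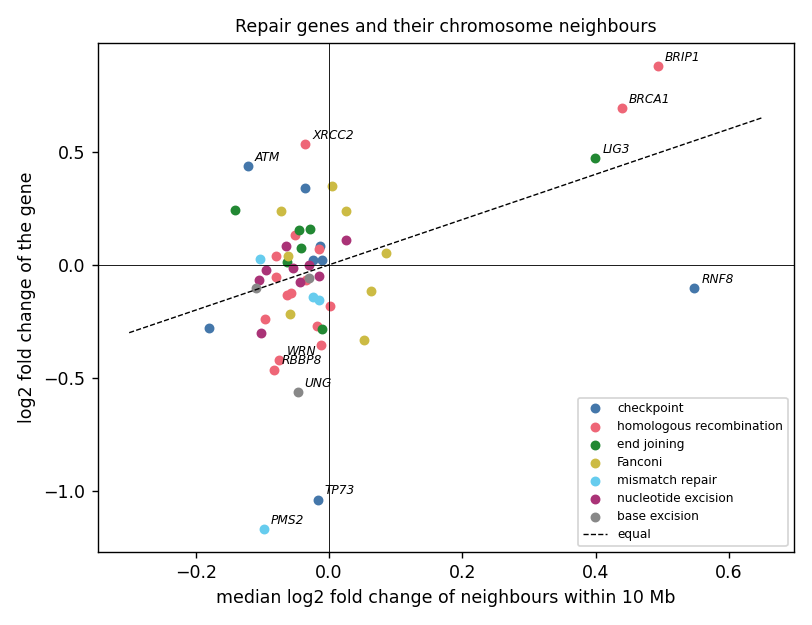
Log2 fold change of each of the 55 repair genes (y axis) against the median of its chromosome neighbours within 10 Mb (x axis), coloured by role; the dashed line marks equal values. BRIP1, BRCA1, LIG3 and RNF8 stand apart on the right, and the other 51 genes have neighbours close to 0 whatever their own change.

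Many repair genes share a start region with a gene on the other strand. Such pairs, with starts within 1000 bases, were sought after the data were seen, and 20 repair genes with a tested partner are described. In 2 pairs both genes rose, BRCA1 with NBR2 (log2 fold change 1.11, at 1.39 ± 0.138 CPM in control) and LIG4 with ABHD13 (0.14). In 2 both fell, PMS2 with AIMP2 and FANCF with GAS2 (-2.72, from 1.71 ± 0.225 to 0.253 ± 0.0425 CPM). In 4 pairs the partner changed the opposite way: ATM with NPAT (-0.23), WRN with PURG (1.67), XRCC4 with TMEM167A (0.14) and LIG3 with CCT6B (-1.10). Of these partners PURG and CCT6B had low levels, from 0.357 ± 0.0387 to 1.14 ± 0.146 CPM and from 0.397 ± 0.0530 to 0.184 ± 0.0486 CPM. In the other 12 pairs at most 1 of the genes passed.

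**Figure D5:**
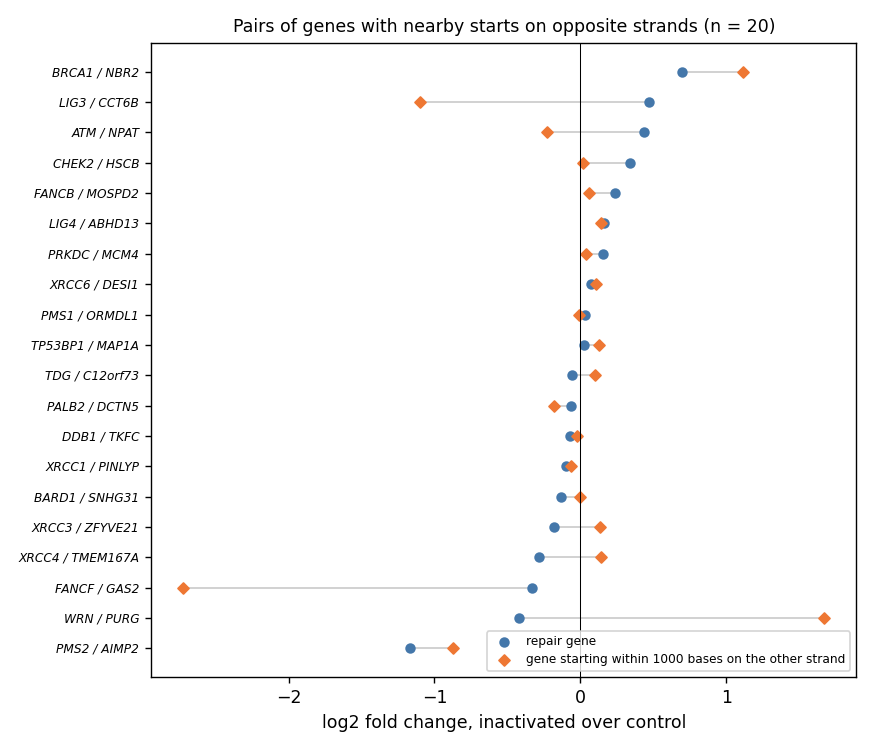
Log2 fold change (x axis) of 20 repair genes (blue circles) and of the gene that starts within 1000 bases on the other strand (orange diamonds), joined by a grey line and ordered by the repair gene. PMS2 and AIMP2 lie together on the left, while WRN and PURG, LIG3 and CCT6B, and ATM and NPAT lie on opposite sides of 0. PURG and CCT6B had low levels, from 0.357 to 1.14 CPM and from 0.397 to 0.184 CPM.

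The calls of 22 of the 32 changed repair genes, 9 higher and 13 lower, held in all 13 other settings tried against a null of no change. These were ATM, CHEK2, BRCA1, BRIP1, XRCC2, LIG3, POLQ, FANCA and FANCM among the higher genes, and TP73, RNF168, RAD54L, RAD50, MRE11, RBBP8, WRN, XRCC4, FANCC, MSH6, PMS2, ERCC2 and UNG among the lower ones. FANCF lost its call in 1 of them, with lane 1 alone (log2 fold change -0.21, adjusted p 0.0693). The other 9, all with small fold changes, lost it when 1 library was left out, and each also lost it in other settings. Counting the null of 1.5-fold, the call was lost in 12 settings for FANCG, 11 for RNF8, 9 for BARD1 and 6 each for PRKDC and XRCC3. It was lost in 5 settings for MSH3, 4 for FANCB and 3 each for BLM and LIG4. PRKDC lost it without control replicate 2 (adjusted p 0.122), control replicate 3 (0.244), inactivated replicate 2 (0.152, log2 fold change 0.08) or inactivated replicate 3 (0.0757). FANCG lost it without any one of the 6 libraries (adjusted p 0.054 to 0.11). RNF8 did so without each library but control replicate 3 (0.0692 to 0.157), and BARD1 without control replicate 1 or 2 or inactivated replicate 1 or 3 (0.0797 to 0.128). XRCC3 lost it without control replicate 1 or 2 or inactivated replicate 2 or 3 (0.0503 to 0.0768), and MSH3 without control replicate 1 or 2 or inactivated replicate 3 (0.0558 to 0.103). FANCB lost it without control replicate 3 (0.0828) or inactivated replicate 2 (0.051), BLM without control replicate 3 (0.109), and LIG4 without control replicate 1 (0.0513). Conversely BRCA2 passed without control replicate 3 (0.0493) and without inactivated replicate 2 (log2 fold change -0.21, adjusted p 0.00431), and XRCC6 passed without inactivated replicate 2 (0.0295). Of the 10 repair genes with at least 10 kb of exon, 8 had inactivated replicate 2 as the highest of its group and 9 had control replicate 3 as the lowest.

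Other genes of these pathways were read from lists of 114 names, of which 107 were tested. In these lists 32 genes rose, 27 fell and 48 did not pass, a share of 55.1%, with a median log2 fold change of 0.02. Further checkpoint genes gave 6 higher and 6 lower of 30. Among them PPM1D, a phosphatase that switches the response off, rose by 0.73 on the log2 scale among chromosome 17 neighbours with a median of 0.49, and the cell-cycle phosphatases CDC25B and CDC25A fell by 0.51 and 0.45. Further recombination genes gave 10 higher and 2 lower of 24, with SFR1 at 0.98, RECQL5 at 0.94 (neighbour median 0.49) and DNA2, a resection nuclease, at 0.62. Further end joining genes gave 4 higher and 4 lower of 11, with TDP2 and APTX, which clean blocked ends, at 0.58 (neighbour median 0.54) and 0.21 and NHEJ1, which stabilises the XRCC4 ligase complex, at -0.59. Further Fanconi and bypass genes gave 7 higher and 4 lower of 15, with CENPX at 0.60 (neighbour median 0.48), REV3L at 0.50 (neighbour median 0.42) and HMCES at -0.46. Further excision repair genes gave 5 higher and 11 lower of 27, with GTF2H5, a small TFIIH subunit, at 0.63 (neighbour median 0.50), CUL4A, the ligase scaffold that binds DDB1, at -0.74, and FEN1, the flap nuclease, at -0.39.

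Target genes of the p53 family, to which TP73 belongs, gave 5 higher and 11 lower of 20 tested, with a median log2 fold change of -0.15. CDKN1A, the cell-cycle inhibitor, had 17.7, 16.96 and 16.8 CPM in control and 11.05, 8.91 and 10.1 CPM in inactivated libraries, a log2 fold change of -0.78 ± 0.079 (adjusted p 7.1e-08). PHLDA3 fell by 1.66 and TP53INP1 rose by 0.65 on the log2 scale. The neighbour medians of CDKN1A and PHLDA3 were 0.57 and 0.37, opposite in sign to their falls. Proliferation genes, with which many repair genes are made in step, gave 9 higher and 4 lower of 20 (median 0.08). Among these MKI67 and TOP2A rose by 0.63 and 0.92, TOP2A among neighbours with a median of 0.46, and MCM5 fell by 0.46. The part of these genes' changes in those of the repair genes was not tested.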

How the data were processed

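Messenger RNA of D283 cells was measured in 12 lane samples, which are 6 libraries on 2 lanes each. The authors deposited a count table, with unscaled whole-number counts for every gene in each lane. Per the submitters' processing notes, the build was GRCh38.p14 and the tools included STAR 2.7.2b, featureCounts 1.6.3 and DESeq2 1.36.0. The handling of strand and of reads with several alignments was not given in the sources used here. Of 49677 entries, 26 hold no counts and were left out, and 22423 had no read.

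Lanes were summed per library, since lanes of a library are not replicates. Genes were kept with filterByExpr (minimum count 10, minimum total count 15), scaled by TMM and compared with edgeR 4.0.16 (quasi-likelihood F test, two-sided, Benjamini-Hochberg adjustment over all 14704 genes tested, threshold 0.05), and every adjusted p in the text is from this test unless a setting is named. The biological coefficient of variation was 0.0447. Alternatives were DESeq2 1.42.0, limma-voom 3.58.1, other scalings and filters, each lane alone, a null of 1.5-fold and leaving out each library. Neighbour medians used tested genes that reached 5 CPM in at least 1 group. Gene names and starts came from the table, and promoter sequences from RefSeq on GRCh38.p14, where 50 of the 56 genes matched. The named genes are ABL1, ABL2, all 56 repair genes, up to 3 genes with the lowest p of each further list, and markers at 0 or highest. Partner genes, near copies and overlapping genes were added after their values were seen. The repair genes, the lists and the tests were chosen with earlier results of these data known. The tests were tried on simulated data first. Some genes of these pathways are not reported here.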

Additional observations from a re-analysis of the deposited data

How the results depend on the processing

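Against a null of 1.5-fold, the number of changed genes was 2280 over all genes, 2 higher and 2 lower repair genes, and 5 in the further repair lists, since small changes cannot pass there. With 1 library left out, 10 to 13 repair genes were higher and 14 to 19 lower, 7923 to 8725 of all genes changed, and 51 to 61 in the further lists. Without the 4 repair genes whose neighbours shifted, 10 were higher and 18 lower. Of the values of single repair genes under other settings, 687 stayed on the same side of the threshold, 79 lost their call and 4 gained one, and no called gene changed direction. With neighbours within 5 Mb in place of 10 Mb the median of the log2 fold change minus that of the neighbours was 0.03 in both cases. No paired analysis was possible because the labels give no replicate numbers shared between the groups. At under 3 CPM, ERCC5 had the widest interval of the 55, and PARP2 had too few reads to test.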
